A study of Mus musculus with 12 samples.

Results

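The imprinted growth network described here consists of 10 genes: Igf2, Igf2r, Grb10, Cdkn1c, Dlk1, Plagl1, Peg3, Mest, H19 and Meg3. They were chosen by name as imprinted genes that act on growth, and all 10 were found among the 15687 genes listed in the table of normalized counts. mRNA was sequenced from 12 subcutaneous tumors of mTc11, a lung cancer line from the mouse. Of these tumors, 6 came from cells with a lentiviral scrambled shRNA (shControl, genotype given as WT, here CTL) and 6 from cells with a lentiviral shRNA against Filip1l (here KD), the gene for Filamin A interacting protein 1-like. Cells of both groups were injected in Matrigel into male C57BL6/J mice that were 8 weeks old, and the tumors were frozen on day 24. Each group derived from transduced cells kept as mixed clones after puromycin selection, and which of the Filip1l hairpins the sequenced KD tumors carried is not given in the sources used here. The tumors are therefore separate grafts of transduced cell populations, and the p-values below measure the spread among grafts and not among independent transductions. A whole tumor also holds cells of the host, so its RNA mixes cancer cells with host muscle, stroma, vessels and leukocytes, and fewer cells of a type cannot be told apart from less RNA per cell.

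Imprinted genes are expressed mainly from the chromosome copy of one parent. Several of them control fetal growth: IGF2 is a growth factor, IGF2R carries IGF2 to the lysosome for destruction, GRB10 dampens signaling from the insulin and IGF1 receptors, and CDKN1C (p57) blocks cyclin-dependent kinases. Many of these genes are high in fetal tissue, fall after birth, and come back in regenerating muscle, where Igf2, H19, Dlk1 and Peg3 have been studied. Acta1, the actin of skeletal muscle fibers, served as the measure of muscle RNA in each tumor.

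The genes sit in several imprinted domains, and promoter sequences from RefSeq (build GRCm38.p6) are shown for members to which the comparisons below return. Dlk1 and Meg3 share a domain on chromosome 12 and behaved differently between the groups, Igf2r on chromosome 17 was the other member with separate groups, and Peg3 and Mest were the members whose promoters held a searched motif. Each window runs 5′ to 3′ from 250 bases before the transcription start to 50 after it. Capitals mark GGGGCCCC, the core of the site bound by PLAGL1, or CAGCTG, an E-box of the kind bound by MYOD1 and MYOG.
Dlk1, chr12:109452573-109452872, plus strand: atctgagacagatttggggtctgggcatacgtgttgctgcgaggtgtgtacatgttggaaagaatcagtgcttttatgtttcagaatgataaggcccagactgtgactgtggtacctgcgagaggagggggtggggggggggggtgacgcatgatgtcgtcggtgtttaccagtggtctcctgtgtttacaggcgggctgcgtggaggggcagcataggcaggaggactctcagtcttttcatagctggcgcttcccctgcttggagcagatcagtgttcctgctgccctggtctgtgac
Meg3, chr12:109540746-109541045, plus strand: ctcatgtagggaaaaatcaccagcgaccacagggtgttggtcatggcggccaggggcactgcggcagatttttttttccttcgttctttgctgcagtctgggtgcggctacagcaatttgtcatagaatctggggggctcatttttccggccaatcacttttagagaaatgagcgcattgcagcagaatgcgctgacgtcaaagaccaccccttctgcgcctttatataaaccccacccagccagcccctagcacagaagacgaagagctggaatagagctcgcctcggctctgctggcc
Igf2r, chr17:12769657-12769956, minus strand: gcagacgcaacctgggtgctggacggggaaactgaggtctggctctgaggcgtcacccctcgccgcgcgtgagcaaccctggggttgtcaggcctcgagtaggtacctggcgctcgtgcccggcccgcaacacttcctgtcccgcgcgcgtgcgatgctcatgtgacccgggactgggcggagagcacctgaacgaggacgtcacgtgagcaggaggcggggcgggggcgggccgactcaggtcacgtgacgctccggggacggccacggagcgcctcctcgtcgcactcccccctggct
Peg3, chr7:6730370-6730669, minus strand: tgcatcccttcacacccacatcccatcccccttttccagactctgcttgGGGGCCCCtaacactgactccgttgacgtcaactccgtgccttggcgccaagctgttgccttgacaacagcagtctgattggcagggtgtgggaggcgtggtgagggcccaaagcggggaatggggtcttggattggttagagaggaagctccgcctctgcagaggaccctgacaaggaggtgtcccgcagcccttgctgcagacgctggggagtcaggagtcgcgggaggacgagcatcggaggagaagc
Mest, chr6:30733256-30733555, plus strand: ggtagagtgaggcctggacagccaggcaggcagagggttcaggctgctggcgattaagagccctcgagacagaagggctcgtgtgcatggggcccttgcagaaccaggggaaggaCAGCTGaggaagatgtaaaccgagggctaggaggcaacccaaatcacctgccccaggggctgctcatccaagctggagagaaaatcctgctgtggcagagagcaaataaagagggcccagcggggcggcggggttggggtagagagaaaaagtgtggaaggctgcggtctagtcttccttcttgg

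Of the 10 members, 8 had an entry in the RefSeq promoter table, with 15 start sites in all. H19 and Cdkn1c had none. Both motifs read the same on either strand, and copies of the 2 could share an end base where they meet. GGGGCCCC was found in 1 of the 15 windows (6.67%, Peg3), in 6.45% of 31 windows of skeletal muscle fiber genes and in 1.08% of all 32851 windows. CAGCTG was found in 1 of the 15 windows (6.67%, an upstream start of Mest), in 54.8% of the windows of skeletal muscle fiber genes and in 16.3% of all windows. The members' windows held a median of 13 CpG dinucleotides, compared with 5 in the muscle fiber genes and 7 in all windows. The Igf2r window, with 34 CpGs, was at or above 93.1% of all windows, whereas the Dlk1 window held 9. H19 is also the precursor of a microRNA pair, shown with the seed (bases 2 to 8) in capitals. Libraries were made from poly(A) RNA, and these mature forms were not measured.
miR-675-5p, chr7:142577112-142577133, minus strand: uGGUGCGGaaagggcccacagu
miR-675-3p, chr7:142577078-142577099, minus strand: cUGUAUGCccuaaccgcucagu

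The libraries held 17834745 to 32419578 reads on the listed genes. Filip1l RNA was only slightly lower in KD tumors, from 1670 to 2184 normalized counts against 1983 to 2542 in CTL, with 5 of 6 KD tumors below the lowest CTL tumor (log2 difference -0.26, SE 0.07, limma adjusted p = 0.00998). These are levels in the whole tumor, host cells included. At the protein level, the paper selected its clones by immunoblot and reported less FILIP1L staining in knockdown tumors. Markers of several cell types differed between the groups, in a test that called 6.2% of all genes higher and 3.97% lower in KD. The marker lists were chosen with earlier results of these data known. Of 7 simple epithelium genes, 5 were called higher in KD (Cldn4, Cldn7, Epcam, Krt19 and Krt8), with Krt8 at 56576 normalized counts on average in CTL and 121129 in KD (log2 1.06, adjusted p = 1.14e-04). Of 8 endothelial genes, 5 were higher at an adjusted p under 0.05, as were 3314 of all 15687 genes, and none was called. Muscle RNA differed as well. Acta1 ranged from 699 to 4041 in CTL (median 1491) and from 1724 to 29765 in KD (median 6778), and 26 of 31 skeletal muscle fiber genes were called higher in KD. The summed level of that list was 6655 to 22440 in CTL and 14983 to 152260 in KD, with no gene of the list at 0 in any tumor. Of 14 listed genes of embryonic and regenerating muscle in the table, 7 were called higher (Chrnd, Myh3, Myh8, Myl4, Mymk, Myod1 and Myog) and 1 lower (Chrna1). The satellite cell genes Pax7, Pax3 and Myf5 were not among the genes listed. Because muscle RNA moved with the group, each member was compared between groups with and without Acta1 as a covariate. That fit uses 1 slope on Acta1 for both groups, and Acta1 itself differed by 2.15 on the log2 scale, so its differences depend on that slope. With the covariate the log2 difference was 0.72 for Igf2, -0.50 for Grb10, -0.33 for Cdkn1c and -1.29 for Plagl1 (limma adjusted p from 0.145 to 0.606). The other members are given below.

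Dlk1 fell in the KD tumors, Igf2r rose modestly but in every one of them, and the remaining 8 members did not separate the groups. A gene was called where limma, fitted on log2(normalized count + 1) over all genes, gave an adjusted p below 0.05 together with a log2 difference beyond 1 in either direction. One member, Dlk1, passed, which is 1 of 10 compared with 10.2% of all genes tested. In that test 3.97% of all genes were called lower and 6.2% higher in KD. At an adjusted p under 0.05 alone, 3 of 10 members passed (Igf2r and Mest higher, Dlk1 lower) compared with 41.9% of all genes. For 2 of 10 members the groups did not overlap (Dlk1 and Igf2r), compared with 21.5% of all genes. The median log2 difference over the 10 members was -0.05, and over all genes it was 0.01. The counts of members called were thus no larger than those of genes in general.

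**Figure D1:**
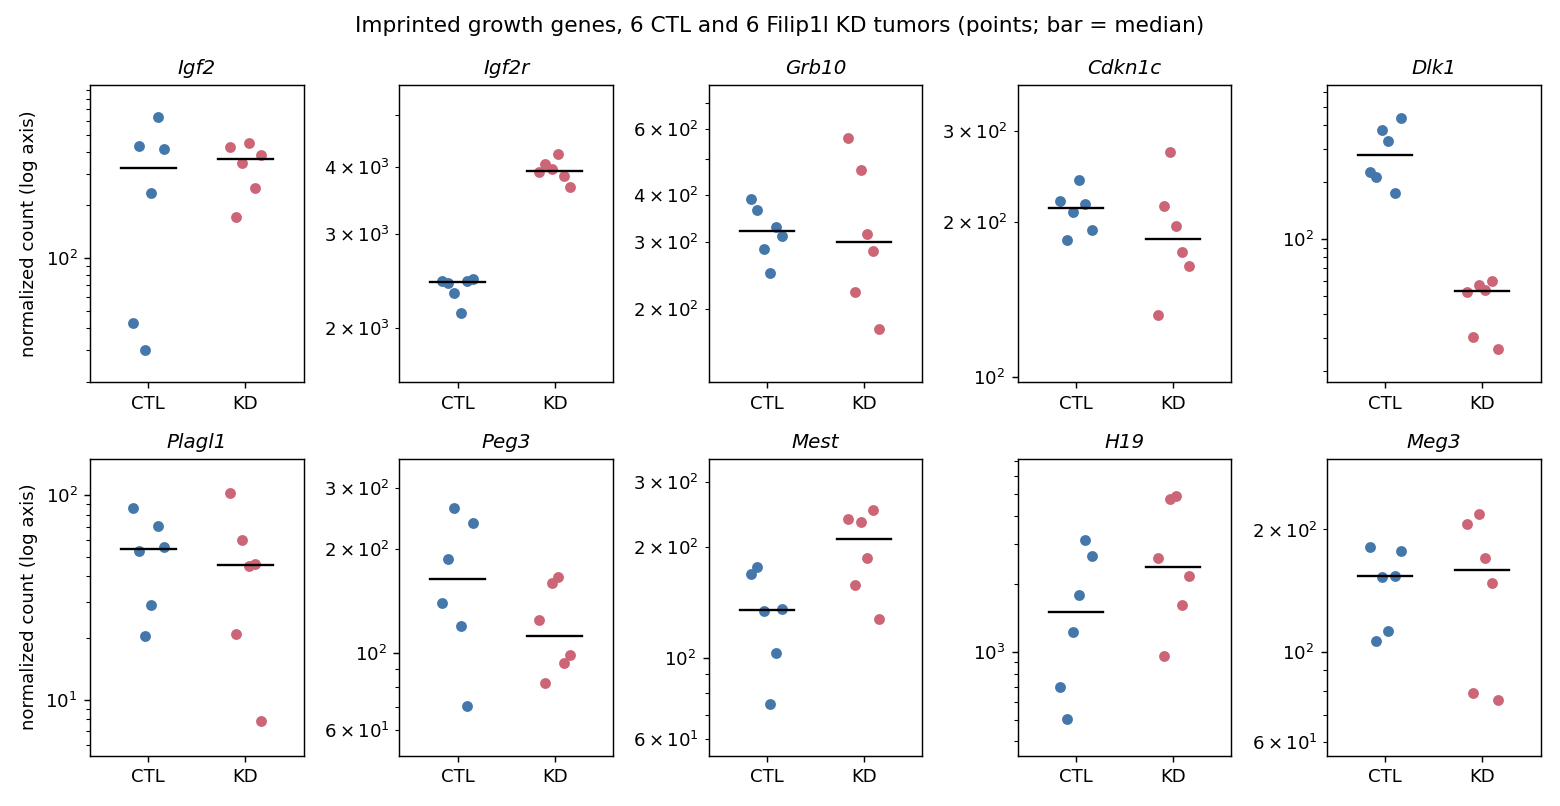
Normalized counts (log axis) of the 10 imprinted growth genes in 6 CTL and 6 KD tumors. Each point is a tumor and each bar the group median; Igf2r and Dlk1 are the panels in which the groups do not overlap, and in the Igf2 panel 2 CTL tumors sit at 43.0 and 30.1, below all the others.

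**Figure D2:**
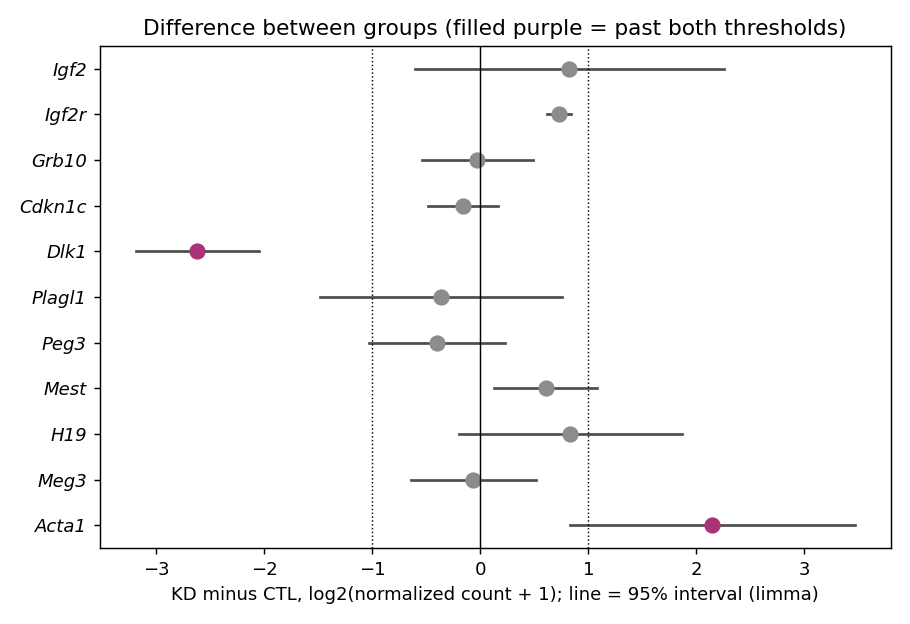
KD minus CTL difference on the log2(normalized count + 1) scale for each member and for Acta1, with 95% intervals from limma; dotted lines mark a log2 difference of 1 either way. Dlk1 (-2.62) lies past the threshold on the low side and Acta1 (2.15) on the high side, and the interval of Igf2r (0.62 to 0.84) is the narrowest.

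The ligand of the network, Igf2, showed the widest spread in CTL tumors. Its normalized counts in CTL were 43.0, 433, 30.1, 232, 632 and 413 for replicates 1 to 6, and in KD they were 427, 172, 347, 448, 251 and 383. Thus 2 CTL tumors were low, and all KD tumors lay within the CTL range. The log2 difference was 0.82 (SE 0.67, adjusted p = 0.348), and its 95% interval ran from -0.60 to 2.25, covering changes of either sign. With 1 tumor left out the difference ran from 0.32 (without CTL replicate 3) to 1.18 (without CTL replicate 5), and it was 0.42 without CTL replicate 1 and 0.19 by both edgeR and DESeq2 on whole reads. In the annotation, 62.8% of the exonic length of Igf2 is shared with the read-through gene Gm49394 on the same strand. The paper counted unique gene hits, and how reads in that shared stretch were handled is not stated. The neighboring noncoding RNA H19, which shares an enhancer with Igf2, was likewise variable. It ranged from 504 to 3125 (median 1501) in CTL and from 960 to 4927 (median 2378) in KD. The groups overlapped, and the log2 difference of 0.83 (SE 0.48) was not significant (adjusted p = 0.185). With Acta1 as a covariate the difference turned to -0.10, and with the mean of the muscle fiber list it was -0.24. The balance of H19 and Igf2 was compared as a ratio of normalized counts within each tumor. This ratio was 16.1, 1.16, 40.7, 7.64, 4.95 and 6.46 in CTL and between 5.59 and 13.7 in KD, and its log2 mean did not differ (exact permutation test, two-sided p = 0.998, adjusted over 3 ratios p = 0.998).

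Igf2r, which removes IGF2 and carries lysosomal enzymes, was the most evenly expressed member within each group. Its values were 2134 to 2473 normalized counts in CTL (mean 2374 ± 129, SD, n = 6) and 3659 to 4222 in KD (mean 3938 ± 190, SD, n = 6). All KD tumors were above all CTL tumors, a 1.66-fold difference (log2 0.73, SE 0.05, adjusted p = 1.67e-07; exact permutation p = 0.00216, the smallest that 6 against 6 tumors can give). It stayed below the 2-fold threshold for a call. Adding Acta1 as a covariate left the difference at 0.70. Airn, the noncoding RNA transcribed antisense to Igf2r from the paternal copy, was also higher, at 40.7 ± 12.1 in CTL and 66.7 ± 14.2 in KD (log2 0.73, adjusted p = 0.0182), with overlapping groups. The library kit was not stated to keep strand, so reads of Airn and of Igf2r introns cannot be told apart. The signaling receptor for IGF1 and IGF2, Igf1r, went the other way (2879 ± 317 in CTL and 1308 ± 198 in KD, log2 -1.15, adjusted p = 1.98e-06). The ratio of Igf2r to Igf1r was therefore 0.69 to 1.01 in CTL tumors and 2.68 to 3.92 in KD tumors (exact permutation p = 0.00216, adjusted over 3 ratios p = 0.00325). This ratio was chosen after the values of both genes were seen, so its p-value is not separate support.

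Among the 15 listed genes of the IGF axis, 4 were called, 1 higher (Igfbp5, a secreted IGF-binding protein, log2 2.02) and 3 lower (Igf1r; Irs2, an adaptor below the receptors, log2 -1.21; Igf2bp1, a protein that binds Igf2 mRNA, log2 -1.29). In the same test 6.2% of all genes were called higher and 3.97% lower. At an adjusted p under 0.05 alone, 1 gene of the list was higher and 9 were lower, and its median log2 difference was -0.38. Of all 15687 genes, 3314 were higher and 3252 lower at that threshold. The binding proteins with the highest levels, Igfbp4 (log2 -0.51), Igfbp7 (-0.91) and Igfbp3 (-0.91), had adjusted p-values of 4.67e-04, 3.63e-06 and 1.32e-04 but did not reach a 2-fold change. Grb10, the adaptor that inhibits these receptors, was between 248 and 390 in CTL and between 176 and 569 in KD. The KD tumors reached further on both sides, with 2 above and 2 below the CTL range, and the log2 difference was -0.03 (95% interval -0.54 to 0.49, adjusted p = 0.942).

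Cdkn1c, the cell cycle inhibitor of the network, was 185 to 241 in CTL and 132 to 273 in KD. The groups overlapped, with 3 KD tumors below and 1 above the CTL range, and the log2 difference was -0.16 (SE 0.15, adjusted p = 0.423). In the annotation, Gm44732 lies antisense to 30.7% of its exonic length. Plagl1, a zinc finger factor that activates several imprinted growth genes, was the lowest member, at 20.4 to 86.0 in CTL and 7.86 to 102 in KD (9 to 101 reads). Its log2 difference was -0.37 (95% interval -1.49 to 0.75, adjusted p = 0.613). Peg3, a zinc finger factor studied in muscle wasting and stem cells, was 70.2 to 262 in CTL and 82.2 to 166 in KD, so that all KD tumors lay within the CTL range. Its log2 difference was -0.40 (SE 0.29, adjusted p = 0.296), and with Acta1 as a covariate it was -1.02 (adjusted p = 0.0327). Peg3 was thus called lower in KD in that fit, the second member called, with 1 slope on Acta1 taken for both groups.

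Mest, which encodes a hydrolase family protein linked to the growth of fat tissue, was 74.8 to 176 in CTL (median 135) and 128 to 252 in KD (median 210). Of the KD tumors, 4 were above the highest CTL tumor. The log2 difference was 0.60 (SE 0.22, adjusted p = 0.0421; exact permutation p = 0.0368). Significance was lost when any one of CTL replicates 3, 4, 5 and 6 or KD replicates 1, 3, 4 and 5 was left out (adjusted p up to 0.0916), and with Acta1 as a covariate the difference was 0.36 (adjusted p = 0.396). Antisense Copg2 covers 23.1% of the exonic length of Mest and averaged 1454 normalized counts, 0.11 higher in KD on the log2 scale. Without strand, reads there cannot be assigned to either gene, and how they were counted is not stated.

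The largest change in the network was the fall of Dlk1, a membrane-bound relative of the Notch ligands that holds preadipocytes and muscle progenitors undifferentiated. Its normalized counts were 226, 214, 380, 332, 175 and 438 in CTL replicates 1 to 6, and 52.4, 30.2, 57.4, 53.9, 59.7 and 26.2 in KD. The highest KD tumor was below the lowest CTL tumor, and both groups varied about as much in relative terms (highest over lowest 2.51 in CTL and 2.28 in KD). The log2 difference was -2.62 (SE 0.27, adjusted p = 3.84e-06; exact permutation p = 0.00216), a 6.15-fold lower level. Acta1, by contrast, was higher in KD, and with Acta1 as a covariate Dlk1 was lower by a wider margin (log2 -3.32, adjusted p = 2.38e-06). Of 5 listed adipocyte genes in the table, 2 were called higher in KD (Cidec and Fabp4) and none lower, and the 12 fibroblast genes had 1 called higher (Pi16) and none called lower. Among all genes, 6.2% were called higher and 3.97% lower. At an adjusted p under 0.05 alone, 2 fibroblast genes were higher and 3 lower, a threshold that 41.9% of all genes passed. The fibroblast list had a median log2 difference of -0.47, with a mean log2 level of 10.8 to 11.5 in CTL and 10.4 to 11.8 in KD. The part of these cell types in the Dlk1 difference was not tested.

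Dlk1 belongs to the Dlk1-Dio3 domain, in which Dlk1, Rtl1 and Dio3 are expressed from the paternal copy and the noncoding RNAs Meg3, Rian and Mirg from the maternal one. The protein-coding neighbor Rtl1, a retrotransposon-derived gene needed in placenta and fetal muscle, fell with Dlk1. It was 28.4 to 68.8 normalized counts in CTL and 2.08 to 10.8 in KD, with no overlap (log2 -2.84, SE 0.40, adjusted p = 6.30e-05), and 2 reads stood behind its lowest value. Dio3, a deiodinase that inactivates thyroid hormone, was 102 to 175 in CTL and 47.9 to 125 in KD, with 4 of 6 KD tumors below the CTL range (log2 -0.89, adjusted p = 0.0111). Of the maternal RNAs, Meg3 was 106 to 181 in CTL (median 153) and 76.0 to 218 in KD (median 159). The KD tumors again spread to both sides of the CTL range, and the difference was -0.07 (95% interval -0.64 to 0.51, adjusted p = 0.873). Rian was 266 to 480 in CTL and 107 to 410 in KD (log2 -0.86, adjusted p = 0.0327), and Mirg, below 27 normalized counts in every tumor, differed by -0.96 (adjusted p = 0.0732). Rtl1 has antisense transcription from the maternal copy, which unstranded reads cannot separate. With Acta1 as a covariate, Meg3 was lower in KD by 0.76 on the log2 scale (adjusted p = 0.0366). That fit gives both groups 1 slope, whereas fitted apart the slope of Meg3 was 0.12 (SE 0.15) in CTL and 0.39 (SE 0.09) in KD.

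**Figure D3:**
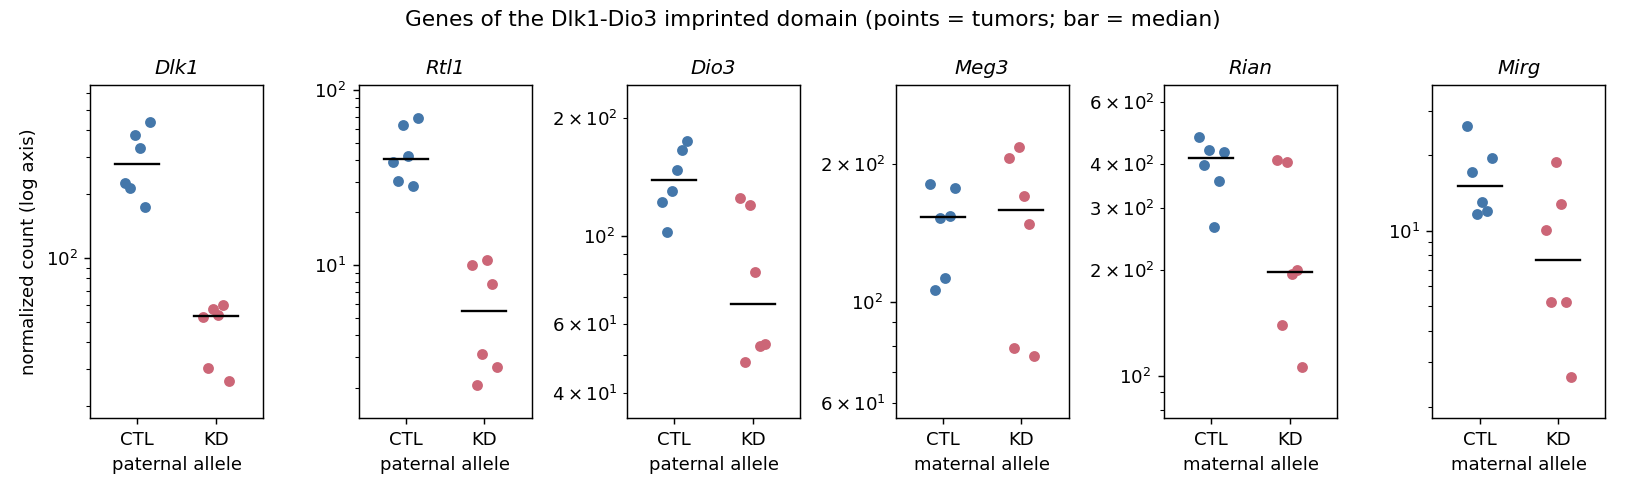
Normalized counts (log axis) of 6 genes of the Dlk1-Dio3 domain in CTL and KD tumors, labeled by the parental copy that is known to express them. Each point is a tumor and each bar the group median; Dlk1 and Rtl1 are separated between groups (no overlap), Dio3, Rian and Mirg have 4 of 6 KD tumors below the CTL range, and Meg3 has 2 below and 2 above.

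The contrast between Dlk1 and Meg3 was expressed as a ratio within each tumor, chosen after the values of both genes were seen. Its p-value therefore gives no support beyond the tests of the single genes. Dlk1 over Meg3 was 1.25, 2.02, 2.49, 2.95, 1.14 and 2.47 in CTL and 0.25, 0.38, 0.26, 0.32, 0.40 and 0.34 in KD. The groups did not overlap, and the log2 ratio fell by 2.56 (exact permutation p = 0.00216, adjusted over 3 ratios p = 0.00325). Over the 12 deviations from the group means, however, all 15 pairs among the 6 genes correlated positively (median r = 0.63, from 0.29 for Mirg and Rtl1 to 0.88 for Rian and Meg3). The mean r over all pairs of genes was 0.00. For Dlk1 and Meg3, r was 0.17 in CTL and 0.92 in KD, and 0.03 over all tumors after Acta1 was removed by regression. These are descriptions over 12 tumors, in which all genes of a tumor share its library and its host cells.

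Of 53 other imprinted genes listed, 40 were in the table, of which 1 was called higher (Snrpn, 11.9 to 24.3 in group means) and 4 lower (Rtl1; Gab1, a signaling adaptor, log2 -1.26; Tfpi2, a protease inhibitor, log2 -1.54; Peg12, log2 -1.01), with a median of -0.05. Thus 5 of 40 were called, beside 10.2% of all genes. The counts do not separate the parental copies, so whether a listed gene was imprinted in these tumors was not measured. At an adjusted p under 0.05 alone, 4 were higher and 9 lower, a threshold that 41.9% of all genes passed (3314 of 15687 higher and 3252 lower). The mean log2 level of the list was 8.01 in CTL and 7.80 in KD, with 4 of 6 KD tumors below the lowest CTL tumor. The listed imprinted genes with the highest levels, Cd81 (log2 0.19), Gnas (-0.13) and H13 (0.06), did not pass (adjusted p from 0.118 to 0.528). Near Cdkn1c on distal chromosome 7, Slc22a18 was higher by 0.54 (adjusted p = 0.01), whereas Phlda2 (0.42), Kcnq1 (0.15) and Kcnq1ot1 (0.22) did not pass.

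Per kilobase of exonic length, the members spanned a wide range of levels. This length joins the exons of all annotated transcripts of a gene, 18089 bases for Meg3, 9308 for Igf2r and 5657 for Dlk1. The order of members below therefore depends on which transcripts are annotated and may differ for the transcripts expressed. In CTL tumors H19 had the highest level, at 677 ± 431 normalized counts per kilobase (SD, n = 6), followed by Igf2r at 255 ± 13.9 and Cdkn1c at 103 ± 9.92. Dlk1 (52.0 ± 18.5) and Igf2 (51.9 ± 41.6) did not differ beyond their spread, nor did Grb10 (35.4 ± 5.66) and Mest (33.5 ± 9.78), and Peg3 (12.7 ± 5.49), Meg3 (8.14 ± 1.75) and Plagl1 (6.70 ± 3.15) were lowest. In KD tumors Dlk1, at 8.24 ± 2.57 per kilobase, lay among these lowest members, next to Meg3 (8.28 ± 3.39) and Peg3 (9.07 ± 2.67).

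The second question was whether the network varied with muscle RNA from tumor to tumor within a group. All 10 members had a positive correlation with Acta1 over the 12 deviations from the group means, compared with 48.0% of all genes, and the median r was 0.54 compared with -0.02 over all genes. These correlations share the same tumors and Acta1 values, so they are not 10 separate observations. The members' mean r with Acta1 was 0.49. It was 0.49 for the embryonic and regenerating muscle list, 0.47 for the endothelial list and 0.10 for the other imprinted genes. At an unadjusted exact p under 0.05, 3 of 10 members passed (Dlk1, Meg3 and Peg3), compared with 4.21% of all genes, and after adjustment over all genes 0 of 10 passed, compared with 0.363%. In the limma fit of the slope on Acta1, 0 of 10 members were called, compared with 0.822% of all genes, while 5 of 10 had an unadjusted p under 0.05 (Dlk1, Meg3, Peg3, Grb10 and H19), compared with 4.95%. KD tumors held 74.5% of the within-group squared deviation of Acta1, so they weighed most in these correlations.

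Dlk1 had the highest correlation with Acta1 of the network, although it was the member that fell in KD. Its r was 0.80 (exact permutation p = 0.00235, adjusted over all genes p = 0.275) and its Spearman rho 0.73 (exact permutation p = 0.0122). Without the 2 tumors farthest from the median of Acta1, KD replicates 3 and 6, r was 0.78. Within CTL it was 0.85 (exact permutation p = 0.0292) and within KD 0.81 (exact permutation p = 0.0694). For each doubling of Acta1, Dlk1 was 1.25-fold higher (slope 0.33, SE 0.08, limma adjusted p = 0.118). Of all genes, 1.08% had an r as high.

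Meg3 correlated with Acta1 at r = 0.78 (exact permutation p = 0.0135, adjusted over all genes p = 0.782; rho 0.76, exact permutation p = 0.0133), and at 0.60 without KD replicates 3 and 6. In KD tumors r was 0.90 (exact permutation p = 0.0208) and in CTL 0.34 (exact permutation p = 0.5). Peg3 correlated at r = 0.62 (exact permutation p = 0.018; rho 0.58, exact permutation p = 0.0466), with 0.88 in KD, 0.53 in CTL and 0.65 without those 2 tumors. For H19, r was 0.56 (exact permutation p = 0.0656; rho 0.53, exact permutation p = 0.0871), with 0.80 in KD and 0.27 in CTL. Without CTL replicate 5, whose H19 was highest in CTL, r of H19 was 0.79 (exact permutation p = 0.00466) and that of Peg3 was 0.59 (exact permutation p = 0.0617). Igf2 did not follow Acta1 (r = 0.05, exact permutation p = 0.86; rho 0.08, exact permutation p = 0.782), and the 2 CTL tumors with low Igf2 lay near the CTL mean of Acta1. The others had r from 0.26 (Igf2r) to 0.58 (Grb10). Leaving out the 2 tumors with the highest Acta1, KD replicates 3 and 4, left 1 member with an unadjusted exact permutation p under 0.05, namely Dlk1 (r = 0.87, p = 0.00509), with Meg3 at 0.68, Peg3 at 0.50 and H19 at 0.28.

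**Figure D4:**
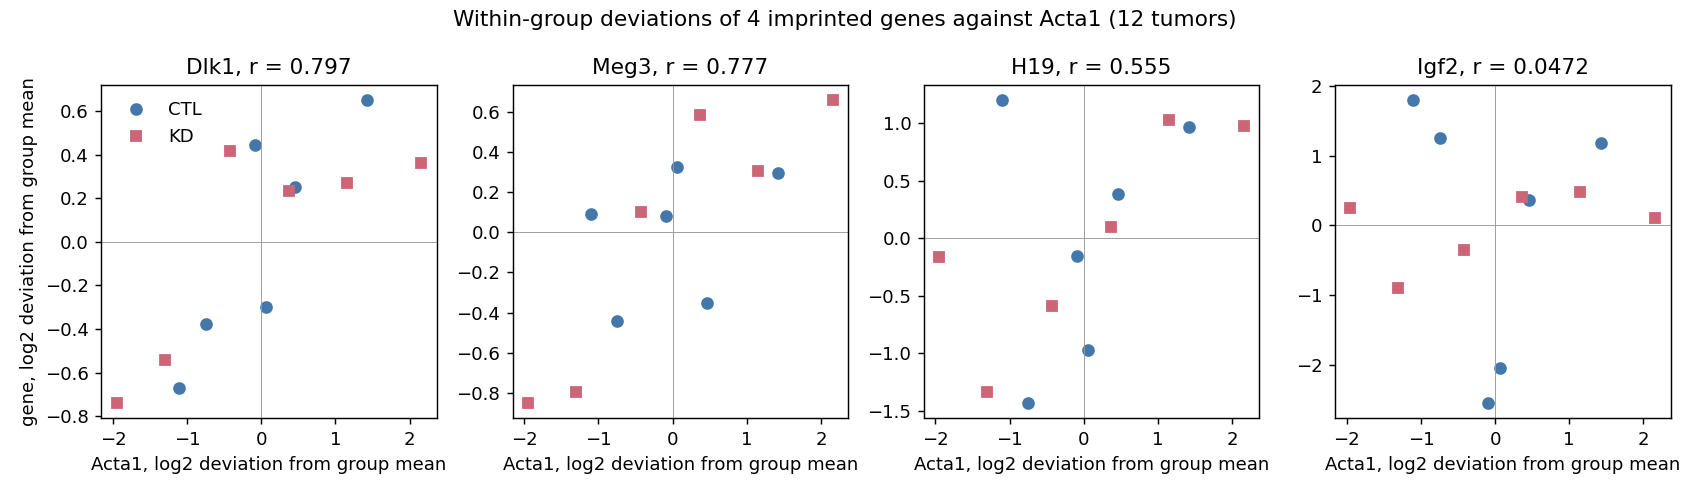
Deviation of Dlk1, Meg3, H19 and Igf2 from their group mean against that of Acta1, both on the log2(normalized count + 1) scale, for 6 CTL (circles) and 6 KD (squares) tumors. Dlk1 rises with Acta1 in both groups (r = 0.797 over 12 tumors), Meg3 mostly among the KD tumors, and Igf2 shows no trend (r = 0.0472).

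The members followed Acta1 more often among KD than among CTL tumors, but the difference did not pass a test. All 10 had a positive r in KD (median 0.78) and 5 of 10 in CTL (median -0.04). The median r over all genes was -0.02 in KD and -0.02 in CTL. Within a group the members share the same tumors and Acta1 values, so their r values are not 10 separate observations. In limma, the slope on Acta1 differed between groups for 0 of 10 members at an adjusted p under 0.05, as for 0% of all genes. At an unadjusted p under 0.05 it differed for 1 of 10 members, Grb10, compared with 2.73% of all genes. For Grb10 the slope was -0.09 (SE 0.15) in CTL and 0.33 (SE 0.09) in KD.

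Among the members themselves, 35 of 45 pairs correlated positively, and a block of Grb10, Plagl1, Meg3 and Mest stood out. Over the 12 deviations, 8 of 45 pairs had an unadjusted exact p under 0.05, compared with 9.69% of the correlations of any gene with a member, and 0 of 45 passed after adjustment, as did 0% of all such correlations. Grb10 and Plagl1 had the highest r, 0.90 (exact permutation p = 3.36e-04; rho 0.88, exact permutation p = 0.00112), with 0.79 in CTL, 0.94 in KD and 0.78 without the 2 farthest tumors. Grb10 and Meg3 correlated at 0.83 (exact permutation p = 0.00996; rho 0.80, exact permutation p = 0.00822), with 0.31 in CTL, 0.93 in KD and 0.73 without the 2 farthest tumors. Plagl1 and Meg3 correlated at 0.79 (exact permutation p = 0.00699; rho 0.87, exact permutation p = 0.00151), and at 0.84 without the 2 farthest tumors. Grb10 and Mest correlated at 0.71 (exact permutation p = 0.00418; rho 0.66, exact permutation p = 0.0192), with 0.83 in CTL and 0.81 in KD. The remaining 4 pairs at an unadjusted p under 0.05 were Dlk1 with Peg3 (0.67), Plagl1 with Mest (0.66), Dlk1 with Meg3 (0.63) and Mest with Meg3 (0.59). Each of these had an unadjusted exact p over 0.05 when certain tumors were left out singly: Dlk1 with Peg3 for CTL replicates 3, 5 and 6 and KD replicate 2, Plagl1 with Mest for KD replicate 6, Dlk1 with Meg3 for CTL replicate 6 and any KD tumor, and Mest with Meg3 for CTL replicates 1, 3 and 4 and KD replicates 1, 2, 3, 4 and 6.

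The neighbors Igf2 and H19, the classical pair of the network, correlated at only 0.45 (exact permutation p = 0.2; rho 0.44, exact permutation p = 0.193), with 0.41 in CTL and 0.83 in KD (exact permutation p = 0.0375). With 1 tumor left out, r ran from 0.32 (without CTL replicate 5) to 0.75 (without CTL replicate 2), and the unadjusted exact permutation p was under 0.05 in the latter case alone. The mean r of the 45 pairs was 0.25, with 0.02 in CTL and 0.48 in KD, where 22 and 41 pairs were positive. Over all genes the mean was 0.00, among the 31 skeletal muscle fiber genes 0.70, and among the 40 other imprinted genes -0.005. A higher mean in KD than in CTL was not particular to the members. It was 0.08 in CTL and 0.72 in KD for the endothelial list, and 0.20 and 0.86 for macrophages. For embryonic and regenerating muscle it was 0.06 and 0.68. The adipocyte (0.37 and 0.05), smooth muscle and pericyte (0.47 and 0.24) and T cell (0.85 and 0.73) lists went the other way. After Acta1 was removed from both genes by regression, the mean over the members' pairs fell to 0.03 and 21 of 45 were positive. Grb10 and Plagl1 kept r = 0.86, Grb10 and Meg3 0.74 and Plagl1 and Meg3 0.72, whereas Dlk1 and Meg3 went to 0.03.

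**Figure D5:**
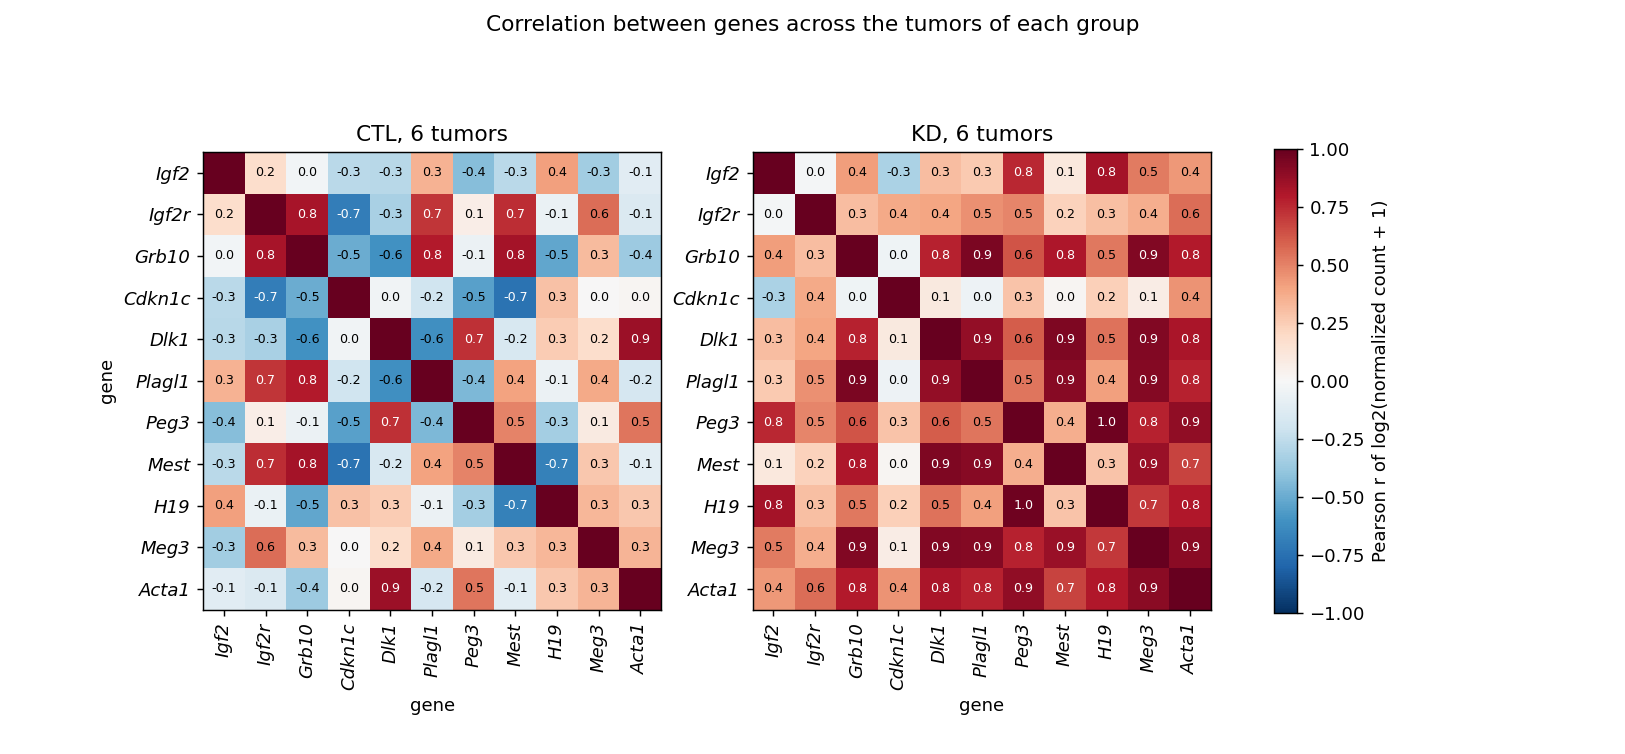
Pearson r between the members and Acta1 across the 6 CTL tumors (left) and the 6 KD tumors (right), on the log2(normalized count + 1) scale, from blue (-1) to red (1). The mean over the members' 45 pairs is 0.02 in CTL and 0.48 in KD; with 6 tumors a group, single cells are imprecise.

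With the marker lists of other cells, 1 member was called, although a list without a call had correlations as high. Slopes on the mean level of each of 9 marker lists were fitted within groups, and Grb10 was called with the macrophage list (slope 1.28, SE 0.28, r = 0.80, limma adjusted p = 0.0276), as were 2.71% of all genes. The adjustment was over the genes tested with a list and not over the 9 lists. KD replicate 1 had the highest Grb10 (569) and the highest macrophage level (mean log2 11.7, other KD tumors 10.6 to 11.2). These slopes were not repeated with tumors left out. No member was called with the lists for skeletal muscle fibers (0.664% of all genes called), embryonic and regenerating muscle (0.0255%), fibroblasts (2%), T cells (0.332%), simple epithelium (0.00638%), adipocytes, endothelium, or smooth muscle and pericytes (0% each). The endothelial list still had r of 0.85 with Grb10, 0.80 with Meg3, 0.79 with Plagl1, 0.69 with Dlk1 and 0.65 with Mest. Their limma adjusted p-values ran from 0.118 to 0.202. With that list the other members had r from -0.19 (Cdkn1c) to 0.42 (Peg3). The simple epithelium list had negative r with Grb10 (-0.72), Meg3 (-0.61), Peg3 (-0.50) and Plagl1 (-0.50). Their limma adjusted p-values with it ran from 0.151 to 0.315. The other members had r from -0.42 (Mest) to 0.35 (Igf2) with the epithelial list. The macrophage list summed to 24483 to 32993 normalized counts in CTL and 21984 to 62371 in KD, led by Lyz2, C1qa and C1qb. All 8 of its genes were above 0 in every tumor. Whether macrophages carried the Grb10 signal was not tested.

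The genes most like each member were ranked by r over the 12 deviations, leaving out genes whose mean was under 50 normalized counts. Grb10 was most like Zfp9 (r = 0.98), Il1r1 (0.96), the IL1 receptor, and Rian (0.95), the noncoding RNA beside Meg3. Meg3 was most like Krba1 (0.96), Abcc9 (0.95), a potassium channel subunit of muscle and pericytes, and Cand2 (0.95). Dlk1 was most like Rasip1 (0.92), Art1 (0.91) and Fzd2 (0.90), a Wnt receptor. Plagl1 was most like Myct1 (0.96), Dnal1 (0.96) and Plekhg2 (0.94), and H19 like Trim7 (0.96), 5430416N02Rik (0.90) and Zfp248 (0.88). Igf2 was most like Gtf3c5 (0.93), Metrn (0.87) and Bicd1 (0.84), Igf2r like Urb2 (0.94), Carf (0.93) and Dip2b (0.91), and Cdkn1c like Safb (0.92), Plec (0.91) and Trmt1l (0.91). Peg3 was most like Rgma (0.88), Rfesd (0.81) and Zmym1 (0.81), and Mest like Cerk (0.90), Parp8 (0.87) and R3hcc1l (0.87). None passed the adjustment over the 156860 correlations examined (adjusted p of at least 0.101, exact permutation).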

How the data were processed

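Per the methods and the submitters' processing notes, the authors trimmed reads with Trimmomatic 0.36, aligned them with STAR 2.5.2b (mm10), counted them per gene with featureCounts (Subread 1.5.2), and the deposited signal is a table of normalized counts, each library's counts divided by 1 factor. Of 15687 gene IDs, 15655 (99.8%) matched the annotation. One read was worth 0.865 to 1.49 normalized counts, and 100% of values were whole reads within 0.01. The edgeR quasi-likelihood test on these reads called 1635 genes and DESeq2 1652. The main test was limma (3.58.1; R 4.3.3) with a mean-variance trend on log2(normalized count + 1), with Benjamini-Hochberg adjustment over all genes. A filter at a mean of 5 removed 0 genes. edgeR was version 4.0.16 and DESeq2 1.42.0. Correlations used deviations from group means, with exact permutation within groups (518400 pairings; 720 in one group), and all permutation tests were two-sided. The limma step was also run on simulated data. Same-numbered tumors of the groups did not deviate together (r from -0.269 to 0.099), so tumors were not paired. The members and lists were chosen with earlier results of these data known. Named genes were the members, listed imprinted and IGF genes that passed both thresholds with the 3 highest others, the 3 leading genes of marker lists, and the 3 most alike genes. The Dlk1-Dio3 genes and the 3 ratios were chosen after their values were seen. Coordinates are those of GRCm38.p6.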

Additional observations from a re-analysis of the deposited data

How the results depend on the processing

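The number of members called between groups was 1 under 11 of 13 alternatives and whenever 1 tumor was left out, and became 2 with Acta1 or with the muscle fiber list as a covariate (Dlk1 and Peg3). With the replicate block it was 1, with Dlk1 at -2.62. Left-out tumors moved the count of all genes called from 1513 to 1713. The H19 difference turned to -0.10 with Acta1 and to -0.24 with the muscle fiber list as a covariate. Differences near 0 changed sign with edgeR and DESeq2 on whole reads (chosen after seeing the data) for Grb10 (0.0619 and 0.0723) and Meg3 (0.0130 and 0.0231). With 1 tumor left out the differences ran from -0.20 to 0.14 for Grb10, -0.66 to 0.047 for Plagl1, -0.20 to 0.11 for Meg3, 0.32 to 1.18 for Igf2, 0.55 to 1.10 for H19, -0.63 to -0.25 for Peg3 and -0.27 to -0.06 for Cdkn1c, the slopes on Acta1 from -0.091 to 0.22 for Igf2, -1.51e-05 to 0.022 for Igf2r and -0.0154 to 0.112 for Cdkn1c, and the r with Acta1 from -0.0814 to 0.221, -0.000242 to 0.484 and -0.0803 to 0.568 for these. Mest was not significant when rescaled to the same total (adjusted p = 0.0676), without limma's trend (0.0548) and with the replicate block (0.0552). The slope on Acta1 called 129 genes, 41 with the replicate block, 34 without the 2 tumors highest in Acta1 (an alternative chosen after seeing the data) and 64 to 138 with 1 tumor left out, 64 without KD replicate 3 and 84 without KD replicate 6. Members called by it were 0 to 1 with 1 tumor left out (Dlk1, without KD replicate 5). The test of a difference in slope called 1 gene, not a member, without limma's trend, and 0 to 2 with 1 tumor left out. Members correlated with Acta1 at an unadjusted exact p under 0.05 numbered 3 with any 1 tumor left out and 1 without those 2 tumors, and pairs of members numbered 5 to 9, 5 without those 2 tumors and 5 with Spearman's rho. Without those 2 tumors the r with Acta1 was -0.0423 for Igf2 and -0.325 for Cdkn1c, with slopes of -0.0675 and -0.0712, and the Igf2 slope was -0.00110 on Ckm. Causes were not tested. Plagl1 and Rtl1, at few reads, were the least precise.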
